A study of Mus musculus with 16 samples.

Results

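The genes described here are 50 mouse genes for cytokines and interferons, the secreted or membrane-bound signals with which immune and stromal cells address each other, out of 21631 protein-coding genes of the autosomes and the X chromosome. They were chosen by name, from the interleukins, interferons, colony-stimulating factors, tumour necrosis factor (TNF) ligands and TGF-beta ligands. For each, the covered share was measured: the percentage of the gene body plus 10 kb on each side that lay inside called peaks of H3K27me3. This histone mark, the trimethylation of lysine 27 of histone H3, is deposited by the EZH2 enzyme of the Polycomb repressive complex and is found over silent genes. Cytokine genes are known for being silent in most cells and switched on in a restricted set of lineages or after a stimulus, and several of them sit side by side in clusters that arose by gene duplication. Polycomb complexes in mammals are known to gather at CG-rich start sites.

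The mark was mapped by sequencing immunoprecipitated chromatin (ChIP-seq) from splenic B cells that had been enriched from C57BL/6 mice aged 6 to 8 weeks on magnetic columns with CD43 beads. The cells were wild type (WT) or came from mice mutant in Ifih1, Rigi and cGAS, genes for sensors of foreign nucleic acid in the cytosol, and were kept for 48 hours either in the solvent DMSO or in 1 µM GSK343, an inhibitor of EZH2. All 4 conditions also held 2 ng/mL of BAFF and 2 ng/mL of IL-4, so the products of 2 of the 50 genes, Tnfsf13b and Il4, were added to every culture. The 16 samples form 8 groups of 2, since each condition has ChIP and input libraries, and each condition is represented by 1 deposited peak list. No value per replicate was used, so no difference below has a replicate check or a test, and the depth behind each list is unknown. A covered share in a pool of cells does not tell how many of the cells carried the mark.

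The 4 lists differed in size. Under DMSO they held 39495 peaks over 84.3 Mb in WT and 49803 over 134 Mb in mutant cells, and with GSK343 11903 over 21.1 Mb and 10847 over 17.0 Mb. Of 9 genes that define B cells, 8 had no peak in any list, and Blk had a covered share of 0.423% in the WT DMSO list. Of 7 T cell genes, 6 had a peak in each DMSO list, and the median share of the 7 was 29.9% in WT and 37.5% in mutant cells. Cd8a had no peak, and Cd5 had 0.948% and 0.848%. Of 6 myeloid genes, 3 (50%) had a peak in the WT DMSO list and 4 (66.7%) in the mutant DMSO list. The shares of all protein-coding genes with a peak in these lists were 50.9% and 56.6%.

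Under DMSO, most cytokine genes carried some of the mark, but over a small part of their windows. Their median covered share was 2.79% in WT and 5.07% in mutant cells, against 0.280% and 1.60% over all protein-coding genes. The means were closer, 7.47% and 11.7% against 8.29% and 11.6%. In WT cells 32 of the 50 genes (64.0%) had a peak in their window, against 50.9% of all protein-coding genes, and in mutant cells 33 (66.0%) did, against 56.6%. With GSK343 the counts were 11 genes (22.0%) in WT and 12 (24.0%) in mutant cells, where the shares of all protein-coding genes were 30.7% and 28.1%. A covered share of at least 10% was reached by 16 genes in the WT DMSO list (23.4% of all genes), 20 in the mutant DMSO list (30.6%) and 1 in each GSK343 list (8.22% and 6.85%), which was Il11 both times. A share of at least 50% was seen in the mutant DMSO list alone, for Il11 and Il3. Of all genes 4.01% reached it in WT and 6.69% in mutant cells under DMSO, and 0.730% and 0.578% in the WT and mutant GSK343 lists. The cytokine genes were shorter than others, with a median gene body of 6729 bp against 17329 bp, so the fixed flanks made up more of their windows.

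Every cytokine gene with a DMSO peak had a smaller covered share in the GSK343 list of the same genotype, 32 of 32 in WT and 33 of 33 in mutant cells. Among all protein-coding genes the share was also smaller in nearly all, 10959 of 11016 and 12220 of 12233. A GSK343 peak was called in the window of 11 of the 32 genes in WT cells (34.4%), against 59.8% of all genes with a DMSO peak, and of 12 of the 33 in mutant cells (36.4%), against 49.4%. Each of these GSK343 peaks overlapped a DMSO peak, except those of Ifnl3 and Il12b in mutant cells. Summed over the merged windows, 1837 kb in all, the peaks covered 124 kb in WT and 187 kb in mutant cells under DMSO, and 21.8 kb and 22.3 kb with GSK343. The mean folds of these peaks over background, as deposited by the authors, were 2.57 and 2.49 under DMSO and 3.03 and 2.95 with GSK343. The covered length under GSK343 was thus 0.175 of that under DMSO in WT cells, where all protein-coding genes gave 0.290, and 0.119 in mutant cells, where they gave 0.160.

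The peaks without a GSK343 counterpart were mostly narrow and of low fold. Of the 74 WT DMSO peaks in these windows, 13 (17.6%) were overlapped by a GSK343 peak, against 19.7% of the whole list, and these had a median width of 4434 bp and a median fold of 3.31, against 734 bp and 2.40 for the rest. In mutant cells 10 of 88 (11.4%) were overlapped, against 12.5% of the whole list, with 5632 bp and 3.62 against 1072 bp and 2.30. When only peaks with a fold of at least 3 were counted, the 2 WT lists came close in size. This limit kept 5065 of 39495 peaks under DMSO and 5389 of 11903 under GSK343. The cytokine genes with such a peak numbered 8 and 7. All 7 were among the 8, namely Il11, Il13, Kitl, Lif, Tgfb2, Tgfb3 and Tnfsf11, and Tnfsf13b was the gene without a GSK343 peak of that fold. In mutant cells 10 genes had such a peak under DMSO and 8 under GSK343, with 7 in common. Seen from the genes, the 21 WT genes with a DMSO peak and no GSK343 peak reached a fold of at most 2.92 under DMSO, and of the 21 in mutant cells Il10 alone passed 3, with 3.02. With the same number of top peaks by p-value taken from each list, the genes with a peak numbered 14 under DMSO and 10 with GSK343 in WT cells, and 16 and 12 in mutant cells. The same counts were not made over all protein-coding genes. Whether the cytokine genes differ from others under these limits was not tested. A fold is relative to the background of its own list, so it ranks peaks within a list and does not compare their height between lists.

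The genes fall into 4 sets by where a GSK343 peak was called. Both genotypes had one at 9 genes, Il11, Il13, Kitl, Lif, Tgfb2, Tgfb3, Tnfsf4, Tnfsf11 and Tnfsf13b. Another 5 genes had one in 1 genotype, Il19 and Il27 in WT and Ifnl3, Il12b and Il20 in mutant cells. A further 21 genes had peaks under DMSO alone, and 15 had no peak in any list. The last set holds Tnf, Lta, Ltb, Il6, Ifng, Il2, Il12a, Il15, Il17f, Il18, Il22, Il23a, Csf3, Osm and Tgfb1, and their nearest WT DMSO peak lay between 11.3 and 147 kb from the gene body, with a median of 69.8 kb. For comparison, the sets were also counted over the 17274 protein-coding genes with a listed start site. Of these, 4190 had a GSK343 peak in both genotypes, 4384 had DMSO peaks alone and 7353 had no peak. Of the 38 cytokine genes with a listed start site, 7, 16 and 11 did.

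**Figure D1:**
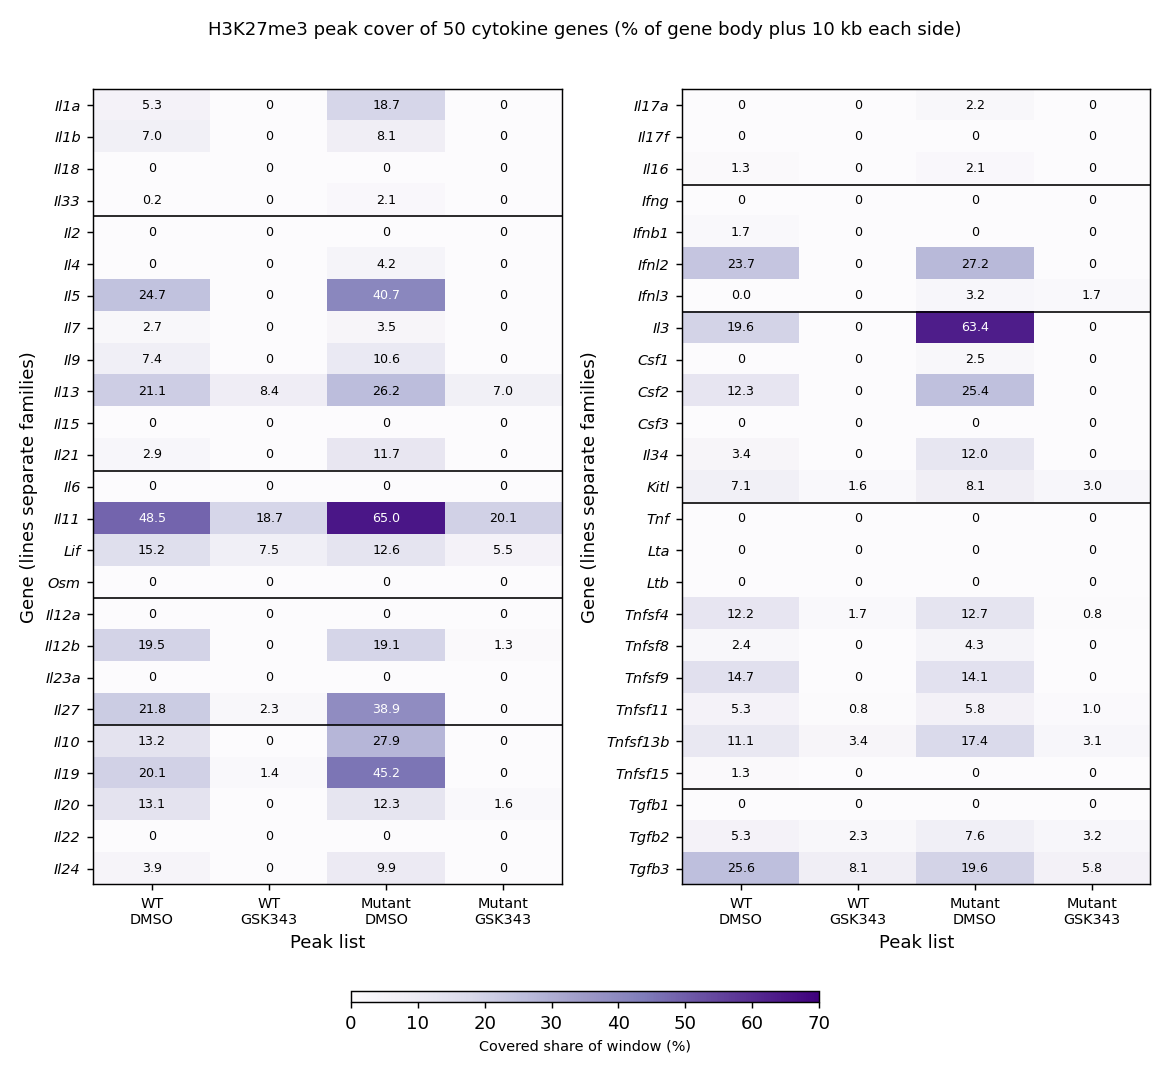
Covered share of each of the 50 cytokine genes (rows, grouped by family) in the 4 peak lists (columns), as a percentage of the gene body plus 10 kb each side, with 1 list per condition and no error. Il11 is the darkest row in every list, 48.5% in WT DMSO and 65.0% in mutant DMSO. Most other rows are at 0 in both GSK343 columns, 21 with DMSO peaks alone and 15 with no peak in any list. Of 17274 protein-coding genes with a listed start site, 4384 had DMSO peaks alone and 7353 had no peak. Of the 38 cytokine genes with one, 16 and 11 did.

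**Figure D2:**
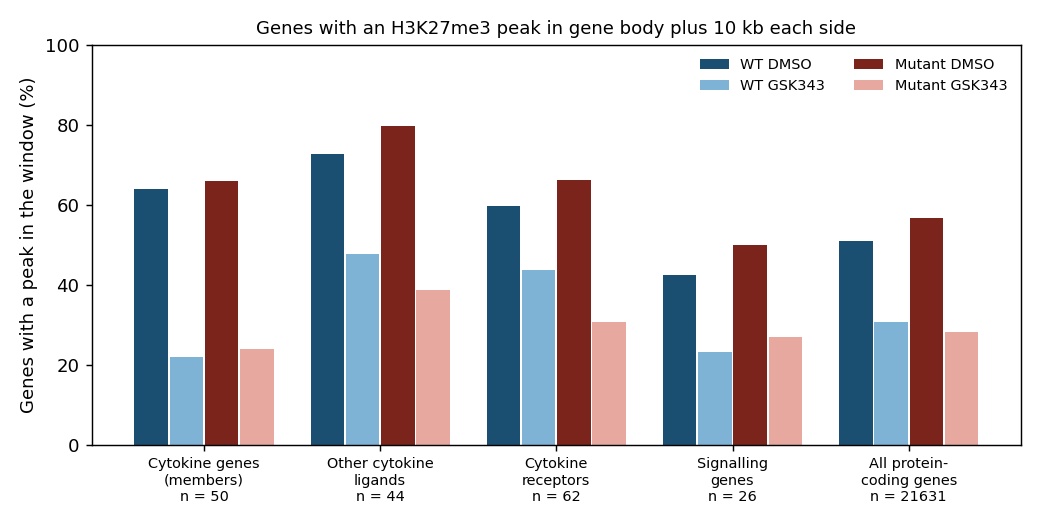
Percentage of genes with a peak in their window (vertical axis) for the 50 cytokine genes, 44 other cytokine ligands, 62 receptors, 26 signalling genes and all 21631 protein-coding genes, with 1 bar per peak list. The cytokine genes stand at 64.0% and 66.0% under DMSO and at 22.0% and 24.0% under GSK343, while all protein-coding genes stand at 50.9%, 56.6%, 30.7% and 28.1%.

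Start sites were available for 38 of the 50 genes, from RefSeq on GRCm38.p6. A peak within 1 kb of a start site was called at 13 of the 38 in the WT DMSO list (24.8% of 17274 genes), 5 in the WT GSK343 list (17.0%), 16 in the mutant DMSO list (28.1%) and 6 in the mutant GSK343 list (16.0%). In WT cells the 5 start sites marked under GSK343 were all marked under DMSO too and belonged to Il11, Kitl, Tgfb2, Tnfsf11 and Tnfsf13b. The mutant cells had the same 5 and Il20. Read as a share of the start sites marked under DMSO, 5 of 13 were left in WT and 6 of 16 in mutant cells, where all genes gave 67.9% and 56.3%. To show what the sequence at such sites looks like, the 250 bases before the start site are printed for 3 genes whose start site was marked in all 4 lists (Il11, Kitl, Tnfsf11) and for 2 whose start site was marked under DMSO alone (Csf2, Il5). They were chosen after their values were seen. They come from RefSeq on GRCm38.p6, run 5′ to 3′ in the direction of transcription and have each CG in capitals. A CG reads the same on both strands. They lie at chr7:4778142-4778391 on the minus strand for Il11, inside the gene and downstream of a second listed start site, at chr10:100015571-100015820 on the plus strand for Kitl, at chr14:78308044-78308293 on the minus strand for Tnfsf11, at chr11:54249900-54250149 on the minus strand for Csf2 and at chr11:53720544-53720793 on the plus strand for Il5.
Il11: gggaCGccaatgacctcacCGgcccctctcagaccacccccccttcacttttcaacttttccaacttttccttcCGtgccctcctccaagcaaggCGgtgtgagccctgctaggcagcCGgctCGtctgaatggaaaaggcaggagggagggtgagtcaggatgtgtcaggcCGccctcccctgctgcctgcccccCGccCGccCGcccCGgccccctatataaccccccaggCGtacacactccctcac
Kitl: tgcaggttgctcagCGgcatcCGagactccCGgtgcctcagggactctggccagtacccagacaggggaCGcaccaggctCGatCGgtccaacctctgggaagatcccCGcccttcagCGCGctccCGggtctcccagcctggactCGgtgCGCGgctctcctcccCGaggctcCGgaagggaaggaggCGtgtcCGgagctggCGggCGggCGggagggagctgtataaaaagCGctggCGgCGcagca
Tnfsf11: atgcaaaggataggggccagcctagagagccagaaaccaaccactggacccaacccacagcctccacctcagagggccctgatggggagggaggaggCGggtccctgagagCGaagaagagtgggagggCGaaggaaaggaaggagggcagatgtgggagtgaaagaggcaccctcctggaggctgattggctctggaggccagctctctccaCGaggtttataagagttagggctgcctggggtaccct
Csf2: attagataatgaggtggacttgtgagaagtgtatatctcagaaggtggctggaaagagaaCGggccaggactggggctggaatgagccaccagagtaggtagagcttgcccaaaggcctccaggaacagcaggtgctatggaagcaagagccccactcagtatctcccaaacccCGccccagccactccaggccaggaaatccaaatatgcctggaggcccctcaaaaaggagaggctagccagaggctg
Il5: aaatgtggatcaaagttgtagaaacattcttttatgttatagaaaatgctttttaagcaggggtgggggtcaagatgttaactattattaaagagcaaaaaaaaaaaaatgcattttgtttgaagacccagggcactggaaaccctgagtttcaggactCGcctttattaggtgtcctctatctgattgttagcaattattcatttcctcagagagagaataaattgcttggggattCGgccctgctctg

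These stretches hold 12 CG in Il11, 23 in Kitl, 4 in Tnfsf11, 2 in Csf2 and 2 in Il5. Of 21045 RefSeq promoters of the same length, 85.2% hold at least 2 CG, 71.6% at least 4, 45.4% at least 12 and 17.5% at least 23. The 5 WT start sites that were marked under both treatments had 4 to 23 CG with a median of 8, and the 8 marked under DMSO alone had 1 to 8 with a median of 2.5. In mutant cells the 6 had 2 to 23 with a median of 7 and the 10 others 2 to 8 with a median of 3. The ranges overlap: Tnfsf8 lost its start site peak with 8 CG, and Tnfsf11 retained one with 4. The whole genome has the same order, with medians of 16 against 7 CG in both genotypes. As a group the cytokine start sites were poor in CG, with a median of 4 against 11 over all genes. The CG count is a description of the sequence and its part in the peak calls was not tested.

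**Figure D3:**
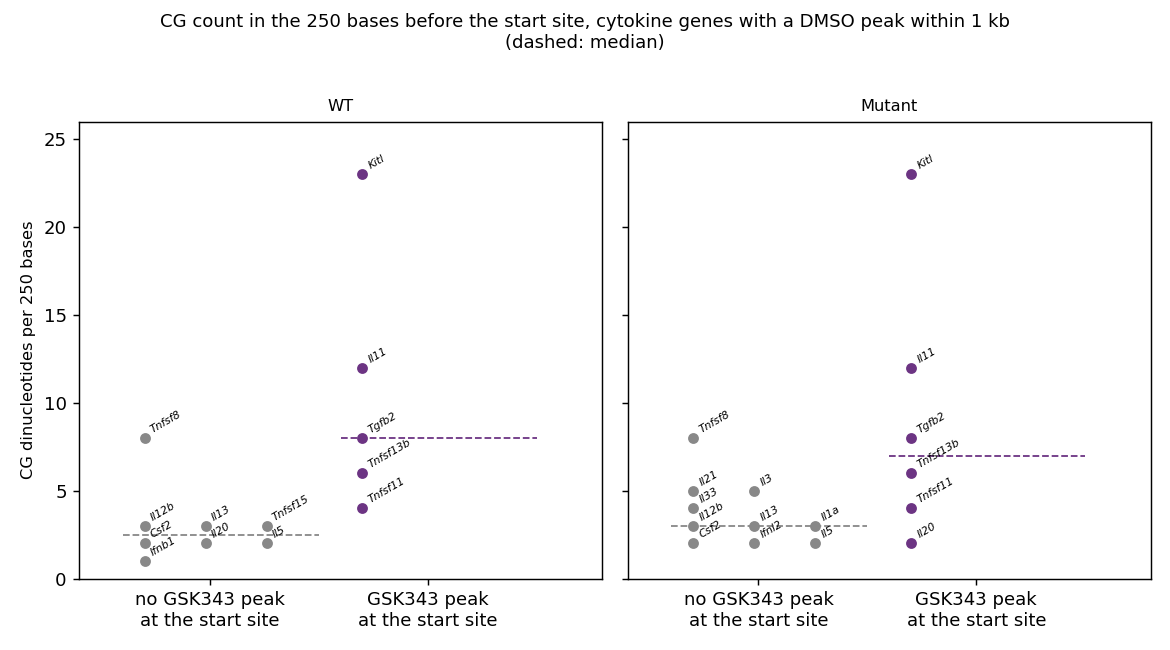
CG count in the 250 bases before the start site (vertical axis) of each cytokine gene with a DMSO peak within 1 kb of it, split by whether a GSK343 peak was also called there, in WT and mutant cells, with dashed lines at the medians. Kitl with 23 and Il11 with 12 stand at the top among the genes with a GSK343 peak, and Tnfsf8 with 8 is the highest among those without.

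**Figure D4:**
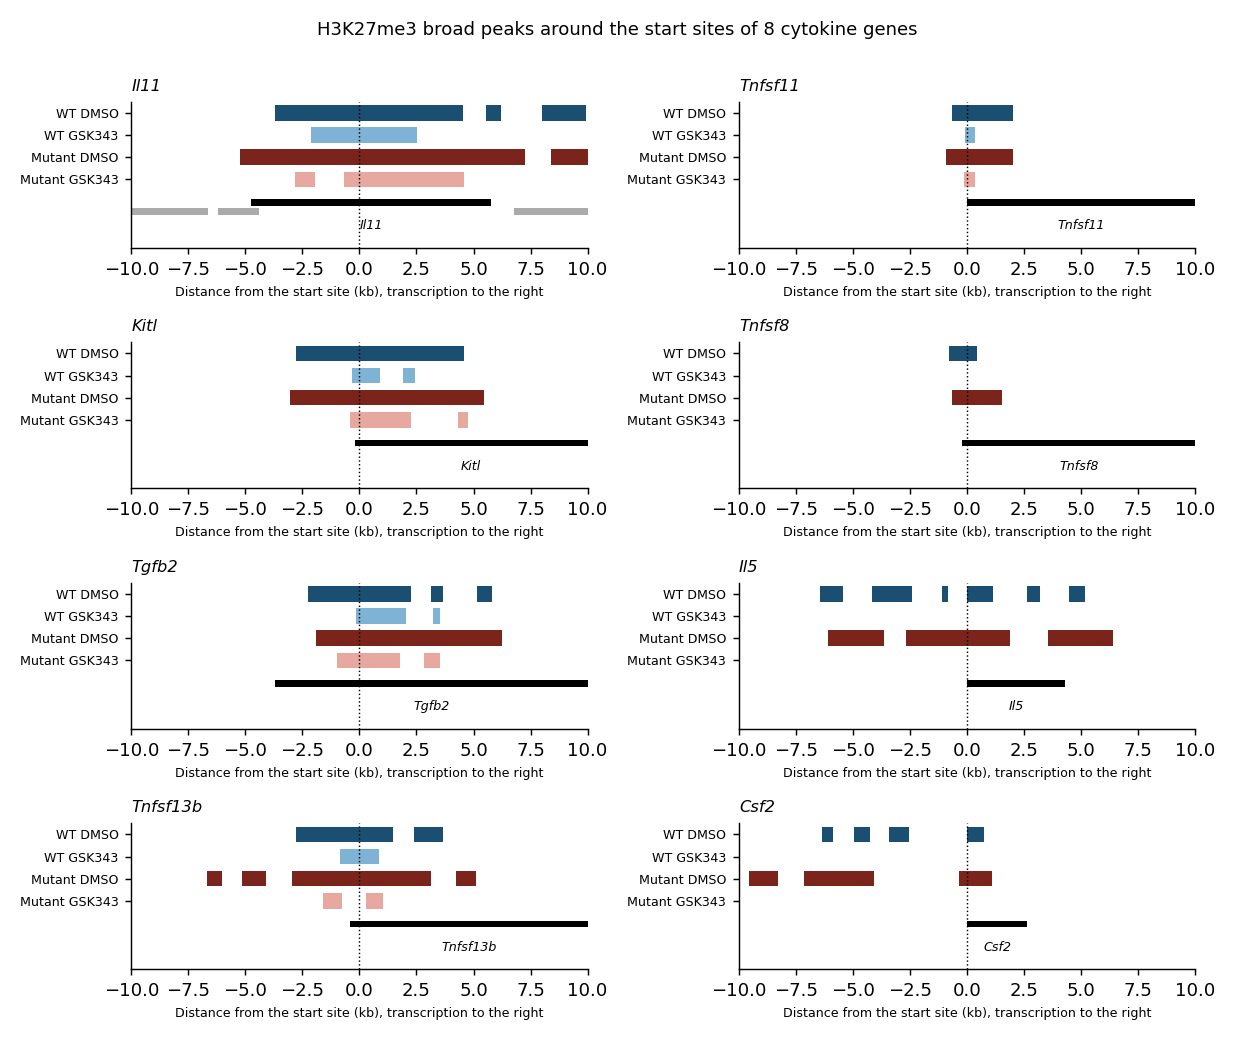
Peaks of the 4 lists (coloured bars) within 10 kb of the start site of 8 cytokine genes, with distance in kb on the horizontal axis, transcription to the right and the cytokine gene in black. Broad DMSO peaks over the start sites of Il11, Kitl, Tgfb2, Tnfsf13b and Tnfsf11 have narrower GSK343 peaks inside or beside them, and Tnfsf8, Il5 and Csf2 have none.

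In the IL-6 family, whose receptors signal through the shared gp130 chain, Il11 and Lif were marked and Il6 and Osm were not. Il11, a cytokine of stromal and epithelial cells at chr7:4772373-4782907, had the highest covered share of the 50 genes in each list: 48.5% in WT and 65.0% in mutant cells under DMSO, and 18.7% and 20.1% with GSK343. Over the gene body alone these were 80.5% and 100% under DMSO and 43.9% and 58.1% with GSK343. One peak accounted for most of it in WT DMSO, chr7:4773581-4781847 with a fold of 3.88, and the widest WT GSK343 peak lay within it at chr7:4775616-4780244 with a fold of 3.50. The mutant DMSO peak at chr7:4770894-4783368 spanned the gene from end to end, 12475 bp with a fold of 4.69, and the widest mutant GSK343 peak was 5235 bp with a fold of 3.61. So in both genotypes a narrower GSK343 peak lay over the start site printed above. Lif, which keeps mouse embryonic stem cells undifferentiated, had shares of 15.2% and 12.6% under DMSO in WT and mutant cells and of 7.53% and 5.46% under GSK343. Its 1 peak per list lay inside the gene, and the GSK343 peaks were 8027 bp and 7963 bp from the start site. Its neighbour Osm, 16.5 kb away, had no peak in any list.

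The type 2 cytokines and the ligands of the common gamma chain, which act on T, B and innate lymphoid cells and on eosinophils, kept no GSK343 peak in their windows, with the exception of Il13. Il4, Il13 and Il5 share a locus of 133 kb on chromosome 11, windows included, and were marked unequally along it. Il4, which drives class switching in B cells, had no peak in WT DMSO and a share of 4.20% in mutant DMSO from 2 peaks, the wider of 703 bp. Il13, an effector of mucosal type 2 responses, had 21.1% and 26.2% under DMSO in WT and mutant cells, and 8.37% and 7.04% with GSK343. Most of this lay before the gene: the WT DMSO peak ran over chr11:53634586-53639019 with a fold of 3.32, and the GSK343 peaks, 1957 bp in WT and 1645 bp in mutant cells, began 1407 bp and 1072 bp upstream of the start site. Il5, the growth factor of eosinophils, had 24.7% in WT DMSO and 40.7% in mutant DMSO and no peak under GSK343. Its DMSO cover was made of 7 peaks of 262 to 1759 bp in WT and 3 peaks of 2480 to 4571 bp in mutant cells, all with folds between 2.27 and 2.51.

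The remaining genes of this family had smaller DMSO shares than Il13 and Il5, and no GSK343 peak. Il21, a product of follicular helper T cells, had 2.86% in WT and 11.7% in mutant cells, and Il9, a mast cell growth factor, had 7.42% and 10.6%. Il9 is the gene just inside the 10% rule used to name genes with their values, and Il24, with at most 9.95%, is the one just outside. Il7, which sustains lymphocyte progenitors, had 2.72% and 3.51%. Il2 and Il15 had no peak, although Il2 lies 96.8 kb from Il21 on chromosome 3.

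Among the growth factors of blood cells, Il3 and Csf2 lie 15.2 kb apart at chr11:54247270-54267279, and their windows share peaks. Il3, a growth factor of early progenitors and mast cells, had a share of 19.6% in WT DMSO and 63.4% in mutant DMSO. Csf2, which encodes GM-CSF, had 12.3% and 25.4%. Neither had a peak under GSK343. The joint locus was covered to 16.7% by 10 peaks in WT DMSO and to 41.5% by 6 peaks in mutant DMSO, so the mutant list had fewer and wider peaks, up to 6586 bp against 1407 bp in WT. When peaks less than 3 kb apart were merged, the Il3 share came to 39.1% in WT DMSO and 82.4% in mutant DMSO. With equal numbers of top peaks from each list it was 0% and 8.89%. Kitl, the stem cell factor that binds the receptor Kit, had shares of 7.05% and 8.10% under DMSO in WT and mutant cells and of 1.64% and 2.97% with GSK343, all from peaks over and near its CG-rich start site. The DMSO peaks there were 7392 bp wide in WT with a fold of 3.41 and 8484 bp in mutant cells with a fold of 4.20. Il34, the second ligand of the Csf1 receptor, had 3.38% and 12.0% under DMSO in WT and mutant cells and none under GSK343. Csf1 itself had 2.51% in mutant DMSO alone, and Csf3, the granulocyte factor, had no peak.

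The IL-10 family members Il24, Il20, Il19 and Il10 lie in that order over 163 kb of chromosome 1, windows included. The locus was covered to 13.4% by 15 peaks in WT DMSO and to 26.1% by 22 peaks in mutant DMSO, and to 1.06% by 2 peaks and 0.236% by 1 peak with GSK343. Il10, an anti-inflammatory cytokine that some B cells secrete, had a share of 13.2% in WT DMSO and 27.9% in mutant DMSO. Over its gene body these were 36.9% and 54.0%, and no peak was left with GSK343 in either genotype. Il19, Il20 and Il24 signal mostly to epithelia. Il19 had 20.1% and 45.2% under DMSO in WT and mutant cells and 1.44% in WT GSK343. Il20 had 13.1% and 12.3% under DMSO and 1.58% in mutant GSK343, from 1 peak of 385 bp. Il24 had 3.88% and 9.95% under DMSO and no GSK343 peak. The second WT GSK343 peak of the locus lay between Il19 and Il10, outside the windows of both. Il22, a family member on chromosome 10, had no peak.

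In the IL-12 family, which steers T cells towards interferon-gamma or IL-17, 2 of 4 genes were marked. Il12b encodes the p40 subunit shared by IL-12 and IL-23 and had 19.5% in WT DMSO and 19.1% in mutant DMSO, mostly from peaks in its flanks, since the gene body was covered to 3.26% and 5.62%. With GSK343 it had a peak of 456 bp in mutant cells alone, a share of 1.32%, and that peak overlapped no mutant DMSO peak. Il27, the p28 subunit of IL-27, had 21.8% in WT DMSO and 38.9% in mutant DMSO. Its WT GSK343 share of 2.33% came from a peak of 607 bp over the neighbouring genes Cln3 and Apobr, and its gene body was bare with GSK343. Il12a and Il23a, the partner subunits of p40, had no peak in any list.

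The chosen genes of the IL-1 and IL-17 families had no GSK343 peak, and their shares were low, except that of Il1a in mutant DMSO. This does not hold for the whole families. Il17d and Il17b, measured with the other ligand genes, had 83.5% and 20.1% in WT DMSO and 49.4% and 7.94% in WT GSK343. Il17c, measured there too, had no peak. Il1a and Il1b, the inflammatory cytokines of myeloid cells, had 5.33% and 6.96% in WT DMSO and 18.7% and 8.09% in mutant DMSO. At Il1a the gene body was bare in WT and covered to 25.4% in mutant cells. Il33, an alarmin of stromal cells, had 0.236% and 2.13%, and Il16, a chemoattractant for CD4+ cells, had 1.33% and 2.09%. Il17a had 2.21% in mutant DMSO alone, and Il18 and Il17f had none.

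The interferon genes differed from each other, also within a type. Ifng, the type II interferon of T and NK cells, had no peak in any list, and neither had Il22, which lies 231 kb from it on chromosome 10. The span of 261 kb that holds both, windows included, was covered to 0.150% by 1 peak in WT DMSO and 1.27% by 4 peaks in mutant DMSO. Ifnb1, the type I interferon made by most cells on sensing nucleic acid, had 1 peak of 343 bp over its start site in WT DMSO, a share of 1.65%, and none in the other lists. Ifnl2 and Ifnl3, the lambda interferons of mucosal surfaces, lie 12.3 kb apart on chromosome 7. Ifnl2 had 23.7% in WT DMSO and 27.2% in mutant DMSO, and its gene body was bare in WT and covered to 43.7% in mutant cells. Ifnl3 was touched by a WT DMSO peak in the outermost 1 bp of its window and in mutant cells had 3.18% under DMSO and 1.70% with GSK343. The pair are near-identical copies, and how reads that match both were placed is not given in the sources used here, so their split is uncertain.

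The 14 Ifna genes, further type I interferons next to Ifnb1 on chromosome 4, were marked far more than Ifnb1. Their median covered share was 41.6% in WT and 53.7% in mutant cells under DMSO, and 2.62% and 0% with GSK343. Their cluster at chr4:88557673-88850656 was covered to 26.7% and 37.8% under DMSO and to 6.62% and 2.41% with GSK343. The mark was uneven along it: in WT DMSO the 4 genes within 80 kb of Ifnb1 (Ifna15, Ifna14, Ifna9 and Ifna12) had between 0% and 3.49%, and the 10 farther away had between 11.7% at Ifna13 and 56.6% at Ifna7. These genes too are close copies of each other, with the same uncertainty.

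**Figure D5:**
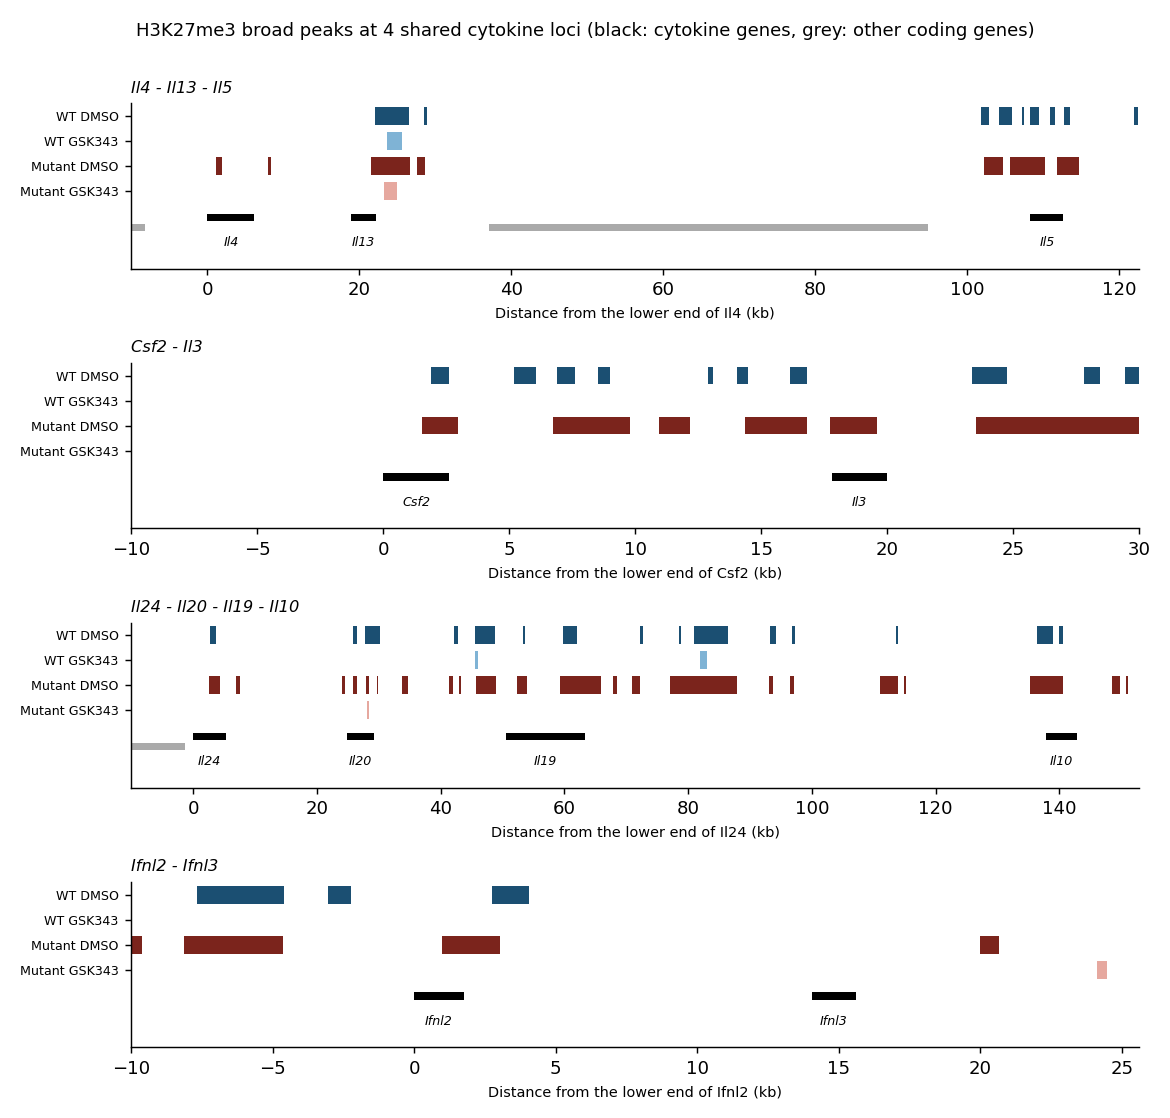
Peaks of the 4 lists (coloured bars) over 4 loci shared by several cytokine genes, with distance in kb from the lower end of the first gene, cytokine genes in black and other coding genes in grey. Under DMSO the peaks are spread over the loci, more broadly in mutant cells, and with GSK343 the peak before Il13 is the widest left, 1957 bp in WT and 1645 bp in mutant cells.

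Of the TNF superfamily ligands, Tnf, Lta and Ltb, the inflammatory and lymphoid-organ ligands that B cells themselves make, share a locus of 31.1 kb on chromosome 17, windows included, and had no peak in any list. Their nearest WT DMSO peak was 69.8 kb from Lta. Tnfsf13b encodes BAFF, the survival factor of B cells that stromal and myeloid cells make and that was added to the cultures. It had 11.1% in WT and 17.4% in mutant cells under DMSO, and 3.42% and 3.13% with GSK343, from peaks over and beside its start sites. Tnfsf4, the OX40 ligand of antigen-presenting cells, had 12.2% and 12.7% under DMSO and 1.67% and 0.816% with GSK343. Tnfsf11, the RANK ligand that drives osteoclasts, had 5.33% and 5.79% under DMSO and 0.802% and 0.986% with GSK343, all from 1 peak per list at its start site. These 3 ligands were marked in every list.

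Tnfsf9, the 4-1BB ligand, had 14.7% in WT DMSO and 14.1% in mutant DMSO from a peak in its flank, between it and the neighbouring ligand gene Cd70, and none with GSK343. Cd70 itself had 73.7% and 66.1% under DMSO and 15.4% and 13.4% with GSK343. Tnfsf8, the CD30 ligand, had 2.40% in WT DMSO and 4.34% in mutant DMSO, and Tnfsf15, a costimulator of T cells, had 1.32% in WT DMSO alone.

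All 3 TGF-beta ligands are regulators of growth and immune tolerance, and they differed from each other. Tgfb1, the form most made by lymphocytes, had no peak in any list. Tgfb2 had 5.29% in WT and 7.64% in mutant cells under DMSO, and 2.34% and 3.23% with GSK343, and its WT DMSO peak over the start site, 4519 bp with a fold of 3.90, had the highest fold of the 74 in these windows. Tgfb3 had 25.6% and 19.6% under DMSO and 8.12% and 5.78% with GSK343, but the peaks left with GSK343 lay beyond the gene, the widest over Ift43, and its own body was bare in both GSK343 lists.

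Between genotypes, 28 of the 35 cytokine genes with a DMSO peak in either genotype had the larger share in mutant cells, where 88.0% of all such genes did. The 7 with the larger share in WT were Tgfb3, Lif, Tnfsf9, Il12b, Il20, Ifnb1 and Tnfsf15. Under GSK343 7 of 14 had the larger share in mutant cells, against 32.9% of all genes. The widest gaps under DMSO were at Il3, from 19.6% in WT to 63.4% in mutant cells, and Il19, from 20.1% to 45.2%. With 134 Mb against 84.3 Mb the mutant DMSO list covers more of the genome. With equal numbers of top peaks Il19 had a share of 0% in both genotypes under DMSO, and Il3 had 0% in WT and 8.89% in mutant cells.

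The receptors and other partners of these cytokines were measured in the same way. Of 62 receptor genes 37 (59.7%) had a peak in WT and 41 (66.1%) in mutant cells under DMSO, and 27 (43.5%) and 19 (30.6%) with GSK343. Of all protein-coding genes 50.9%, 56.6%, 30.7% and 28.1% had one, in the same order. A GSK343 peak was called at 27 of 37 in WT cells (73.0%) and at 19 of 41 in mutant cells (46.3%), where all protein-coding genes gave 59.8% and 49.4% and the cytokine genes 34.4% and 36.4%. The highest WT DMSO shares were at Tnfrsf1a, the main receptor of TNF, with 95.4% in WT DMSO and 65.6% in WT GSK343, at Lifr, the receptor of LIF, with 67.3% and 27.7%, and at Tnfrsf25, the receptor of the Tnfsf15 product, with 65.3% and 48.9%. In mutant cells these genes had 98.4% and 57.9%, 84.3% and 18.3%, and 69.7% and 52.8%. For the cytokines in the medium, the BAFF receptor gene Tnfrsf13c had 8.93% and 11.7% under DMSO and 4.69% and 5.23% with GSK343. Il4ra had 3.65% in mutant DMSO alone. Neither Tnfrsf13b nor Tnfrsf17, the other BAFF receptor genes, had a peak. The receptor genes of type I and type II interferon, Ifnar1, Ifnar2, Ifngr1 and Ifngr2, had no peak either, and Ifnlr1, for lambda interferon, had 9.21% and 21.9% under DMSO and 0% and 2.49% with GSK343.

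Of 44 other ligand genes, the Ifna genes included, 32 (72.7%) had a peak in WT and 35 (79.5%) in mutant cells under DMSO. With GSK343 21 (47.7%) and 17 (38.6%) had one. All protein-coding genes gave 50.9% and 56.6% under DMSO and 30.7% and 28.1% with GSK343. The windows of neighbouring Ifna genes overlap, so some peaks count for several of them. Il17d, a member of the IL-17 family, had the highest WT DMSO share of them, 83.5%, against 87.2% in mutant cells, and 49.4% and 20.5% with GSK343. It was followed by Cd70 and Ifna7. A further 26 genes encode kinases, STAT and SMAD factors and adaptors downstream of the receptors. Of these, 11 (42.3%) had a peak in WT and 13 (50%) in mutant cells under DMSO, and 6 (23.1%) and 7 (26.9%) with GSK343. Each share was below that of all protein-coding genes. The highest were Jak3, the kinase of the common gamma chain, with 25.7% and 11.0% in WT DMSO and WT GSK343, and the feedback inhibitors Socs3, with 24.4% and 8.39%, and Socs2, with 14.3% and 6.04%. In mutant cells these had 25.6% and 8.24%, 27.1% and 0.903%, and 16.9% and 5.98%.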

How the data were processed

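ChIP-seq libraries of H3K27me3 and inputs were made from splenic B cells in 16 samples, grouped by their titles into 8 groups of 2. The data used were 4 deposited broad peak lists, whose peak names give genotype and treatment and a folder for pooled duplicates. They were read as pooled, but the mutant prefixes end in 1, so those lists may rest on replicate 1. Per the submitters' processing notes the tools include bcl2fastq, Bowtie2 2.4.2, SAMtools 1.12, MACS2 2.2.7.1, bedtools 2.29.2 and deepTools 3.5.1, with the build mm10. Peak positions, the linear fold (ratio) of each peak over background, its score, and the −log10 of its p-value and q-value are as deposited by the authors. The score was not used. Depth, the handling of reads with several matches and the calling settings are not given in the sources used here.

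Genes came from the RefSeq table of GRCm38. All 50 members and every listed pathway gene were matched by symbol. Peaks were merged within a list, the covered bases of each window (gene body plus 10 kb each side) were counted in Python 3.11.15 with pandas 2.3.3, and a peak counted as present from 1 bp of overlap. Positions are 1-based. The counting was checked on 50 simulated windows and, for 8000 gene windows, against bedtools 2.31.1, and all were equal. Members within 150 kb of each other were called 1 locus. Start sites and promoters came from RefSeq on GRCm38.p6 (38 of 50 members). Where a gene has several start sites, the one with the most CG among those near a DMSO peak was counted and printed.

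Genes covered to at least 10% in at least 1 list are named with all values, and the others where a family or locus needs them. The members and lists were chosen with earlier results of these data known. No test was run, since each condition has 1 list. The alternatives were other windows (gene body alone, or with 2 kb flanks), peaks of a q-value of at most 0.01, of a fold of at least 3 or of at least 1 kb, the same number of top peaks per list, peaks merged over 3 kb, and loci in place of genes.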

Additional observations from a re-analysis of the deposited data

Results flagged for a closer look

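At 7 genes the gap between mutant and WT cells had opposite signs under the 2 treatments. Mutant minus WT, the covered share of Il19 differed by 25.0 percentage points under DMSO and by -1.44 under GSK343, that of Il27 by 17.1 and -2.33, that of Il13 by 5.13 and -1.33, and that of Tnfsf13b by 6.28 and -0.283. The gap at Tnfsf4 was 0.426 under DMSO and -0.851 under GSK343, at Il20 it was -0.827 and 1.58, and at Il12b -0.355 and 1.32. Of all protein-coding genes with a peak in either genotype, 88.0% had the larger share in mutant cells under DMSO. Under GSK343 67.1% had the larger share in WT cells. Il19, Il27, Il13, Tnfsf13b and Tnfsf4 thus went the way of most genes under both treatments, and Il20 and Il12b the other way. The difference between treatments was not tested, since each condition has 1 list, and at Il19, Il27, Il20 and Il12b the GSK343 value rests on 1 short peak in 1 genotype.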

How the results depend on the processing

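Each condition has 1 list, so no result here has a spread, and depth limits how many weak peaks could be called. No paired analysis was possible because each list stands for a whole group and gives no values per replicate, and leaving out a replicate was not run for the same reason. Of 718 values recomputed under another setting, 458 stayed equal or close and 260 moved. The 458 include values that were 0 and stayed 0. A turn of direction was defined for the ratios of covered length, GSK343 over DMSO, alone, and 0 of these turned. The cause of each move was not tested beyond what the setting itself changes. All 20 genes named for their cover had smaller shares with GSK343 as reported. Under the other settings none was larger, except Il20 in mutant cells at a fold of at least 3. Its share there was 0 under DMSO and 1.58% with GSK343. Fewer genes were smaller, and the others were equal. At a fold of at least 3, 5 of the 20 were smaller in WT and 7 in mutant cells. These counts were 10 and 13 with equal numbers of top peaks, and 14 and 16 at a q-value of at most 0.01. With the gene body alone they were 15 and 18. Under the remaining settings at least 18 were smaller in each genotype.

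The genes with a peak numbered 18 in WT DMSO and 7 in WT GSK343 at a q-value of at most 0.01, and 8, 7 and 10 in WT DMSO, WT GSK343 and mutant DMSO at a fold of at least 3. With equal numbers of top peaks they numbered 14 in WT DMSO and 16 in mutant DMSO, against 10 and 12 with GSK343, with the gene body alone 7 in WT GSK343, and with peaks of at least 1 kb 7 in WT GSK343 and 6 in mutant GSK343. The merged windows were covered in WT and mutant DMSO to 4.07% and 6.26% at the q-value limit, 2.55% and 3.52% at the fold limit and 3.72% and 4.68% with equal numbers, where all peaks gave 6.78% and 10.2%. The ratio of GSK343 to DMSO was 0.352 in WT and 0.245 in mutant cells at the fold limit, 0.303 and 0.259 with equal numbers, and 0.193 in mutant cells over gene bodies alone. Genes covered to at least 50% numbered 2 in WT DMSO, 5 in mutant DMSO and 1 in mutant GSK343 over gene bodies alone, 1 and 4 in the DMSO lists with 2 kb flanks, and 1 and 5 with merged peaks. In mutant DMSO they numbered 1 at the q-value limit, 0 at the fold limit and 1 with equal numbers. Counting loci in place of genes left the counts of marked units close. None of these settings was run over all protein-coding genes, so the counts have no share of all genes beside them.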
